A study of Mus musculus with 9 samples.

Results

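The genes described here are 10 clock transcription factor genes: the activators Clock and Npas2, and the output and feedback factors Nr1d1, Nr1d2, Bhlhe40, Bhlhe41, Dbp, Tef, Hlf and Nfil3. They were taken by name from the 21887 protein-coding genes of the RefSeq table of GRCm38.p6, whose coordinates are those of mm10. For each gene, every binding peak of the glucocorticoid receptor (GR) and every peak of acetylated lysine 27 of histone H3 (H3K27ac) was collected in the gene span and 50 kb to each side. GR is the nuclear receptor through which glucocorticoids act on genes, and H3K27ac marks active promoters and enhancers. Both were mapped by chromatin immunoprecipitation and sequencing (ChIP-seq).

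The cells were granulosa cells, obtained by puncturing the ovaries of wild-type CBA x C57BL/6 F1 mice aged 21 days. All mice were primed with equine chorionic gonadotropin (eCG, 5 IU), which drives follicle growth. After 44 h, mice were killed (the 0 h group, 2 GR libraries and 1 H3K27ac library) or were given 5 IU of human chorionic gonadotropin (hCG), a stand-in for the LH surge, and killed 6 h later (the 6 h group, 2 GR libraries). An uninjected group at the later time was not analysed here, so hCG, the injection and the extra hours cannot be told apart. Nor do the labels say whether a library is 1 mouse or a pool, and the p-values below rest on the spread between libraries, which could be purely technical. H3K27ac peaks lay within 1 kb of a gene end in 9 of 10 granulosa cell markers (all but Cyp19a1), 2 of 7 theca, 1 of 8 oocyte, 2 of 7 leukocyte and 1 of 6 endothelial markers.

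In the mammalian clock, CLOCK or its close relative NPAS2 pairs with BMAL1 and switches on genes that carry an E-box, CACGTG. Among the products, REV-ERB alpha and beta (Nr1d1, Nr1d2) repress through the core AGGTCA, where the ROR receptors activate, and DEC1 and DEC2 (Bhlhe40, Bhlhe41) compete for E-boxes. The PAR bZIP factors DBP, TEF and HLF activate through the D-box, of which TTATGTAA is a form, and NFIL3 represses through the same element. Glucocorticoids are a known signal that sets clocks in peripheral tissues, and GR binds palindromes built on AGAACA.

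A GR peak was called in the windows of all 10 genes in at least 1 library, against 68.8% of all protein-coding genes. At Bhlhe41 and Hlf no peak overlapped one of another library. Overlapping peaks (1 bp or more) of the 4 lists were joined into loci, 50 of them in the 10 windows. Of these, 12 loci at 8 genes were called in all 4 libraries, 8 loci at 5 genes only at 6 h (in both 6 h libraries and neither 0 h library), and 0 only at 0 h. The remaining 30 were called in other sets of libraries, 15 of them in 1 library alone. The genes with a locus in all 4 libraries were Clock, Npas2, Nr1d1, Nr1d2, Bhlhe40, Dbp, Tef and Nfil3, 8 of 10 against a background of 45.5%. Those with a locus only at 6 h were Npas2, Bhlhe40, Dbp, Tef and Nfil3, 5 of 10 against 16.5%. For loci only at 0 h the background was 6.78%. These are counts set beside all genes, without a test, and the windows held more loci of any kind, a median of 4.5 against 2. Without the second 6 h library, 22 loci were called in all the remaining libraries and 16 only at 6 h. The loci only at 0 h numbered 10 at 5 genes without the first 6 h library, 2 at 2 genes without the first 0 h library and 3 at 3 genes without the second.

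Many of these loci belonged by position to other genes. A member was the nearest protein-coding gene of 25 of the 50 loci, of 3 of the 12 loci in all 4 libraries and of 3 of the 8 loci only at 6 h. By that stricter measure, chosen after the values were seen, Nr1d2, Bhlhe40 and Nfil3 had a locus in all 4 libraries (3 of 10, background 23.0%) and Bhlhe40 and Nfil3 had one only at 6 h (2 of 10, background 7.76%). The windows of Dbp and Tef hold 9 and 4 neighbouring protein-coding genes, and those of Bhlhe40 and Hlf none. Which gene a locus acts on was not measured.

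**Figure D1:**
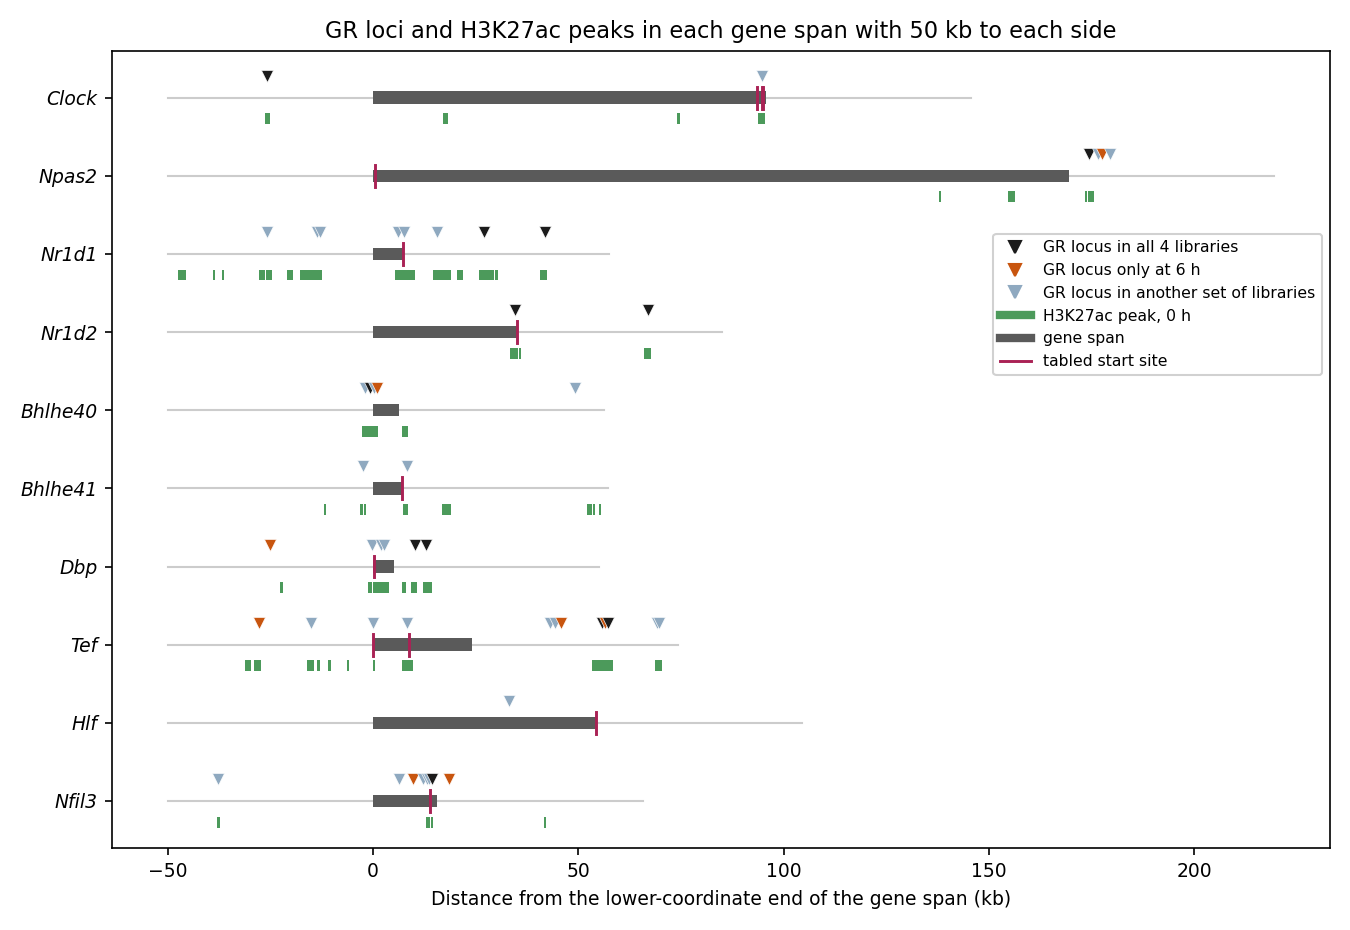
GR loci (triangles) and H3K27ac peaks (green bars) around each gene, by distance in kb from the lower-coordinate end of the gene span (dark bar), with tabled start sites as red ticks and green bars drawn at least 0.6 kb wide. Loci in all 4 libraries (black) lie at or near the starts of Nr1d2 and Nfil3, beside one end of Bhlhe40 and otherwise over neighbouring genes, while Hlf has 1 locus and no H3K27ac.

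The peaks called per library in the 10 windows together numbered 31 and 26 at 0 h and 45 and 24 at 6 h. The 6 h libraries thus held the highest and the lowest number, and the groups overlapped. The difference of means was 6 peaks (28.5 ± 3.54 against 34.5 ± 14.8, mean ± SD, n = 2 each, exact permutation test, two-sided, p = 1). Leaving out the first 6 h library made it −4.5, and leaving out the second made it 16.5. The whole lists held 10116, 9726, 14746 and 10588 peaks in the same order. The depth of the libraries is unknown, and a peak can be missing from a list because it fell short of the authors' threshold. In such bulk samples, fewer cells with GR at a site and less GR per cell cannot be told apart.

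Gene by gene, Npas2 (1 and 1 peaks at 0 h, 3 and 3 at 6 h) and Nfil3 (2 and 1, then 9 and 3) had more peaks in both 6 h libraries than in either 0 h library. Among all genes 10.9% did. Bhlhe41 had 1 and 1 at 0 h and 0 and 0 at 6 h, a pattern of 3.66% of genes, but its 2 peaks lay at different places. The other 7 genes overlapped between the times. Tef, with 8, 4, 11 and 6 peaks, had the most in every library but the second 0 h library, where Nr1d1 had 6 and Dbp 5.

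**Figure D2:**
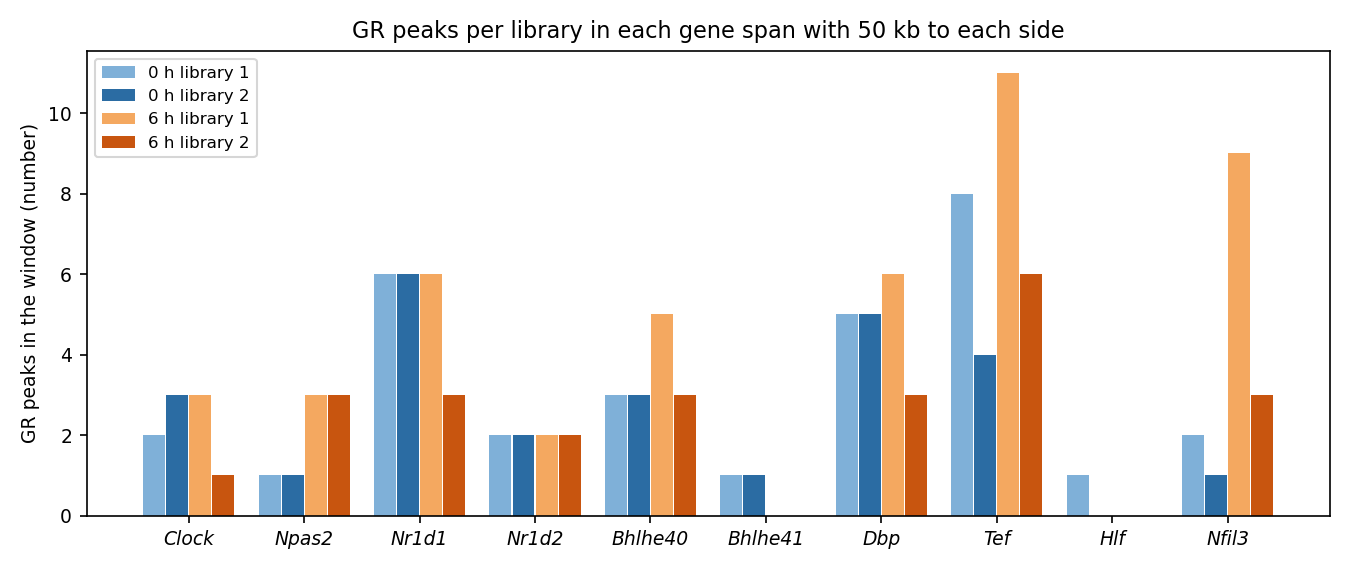
Number of GR peaks (y axis) in the window of each gene (x axis), with 1 bar per library and blue for 0 h, orange for 6 h. The first 6 h library has 9 of the peaks at Nfil3 and 11 at Tef, and both Bhlhe41 and Hlf are at 0 in the 6 h libraries.

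The second 6 h library stood apart at many of these genes. Of the 10 loci called in exactly 3 libraries, all 10 were missing from that library alone, at Clock (1), Nr1d1 (3), Bhlhe40 (1), Dbp (3) and Tef (2). Over the genome, 1830 of the 2625 loci called in exactly 3 libraries (69.7%) had the same gap. Its peaks were the narrowest (median 322 bp against 374 to 393 bp), and its median fold enrichment over the 5012 loci shared by all 4 libraries was 6.88, against 8.69 and 8.81 at 0 h and 9.73 in the first 6 h library. Their part in the missing calls was not tested. These 10 loci include the promoters of Clock, Nr1d1 and Dbp and the second start of Tef.

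Clock encodes the DNA-binding partner of BMAL1. Its start region (chromosome 5, gene span 76209868 to 76305603) held a GR locus of 1284 bp (76304003 to 76305286), which overlapped the promoters of 2 of its 3 tabled start sites and lay in an H3K27ac peak of 1440 bp. Fold enrichments, which are the authors' own ratio over local background and are given here as the largest peak of a library in a locus, were 9.26 and 7.53 at 0 h and 11.5 in the first 6 h library, with no call in the second. Each of the second 0 h and first 6 h libraries called 2 separate peaks there. The 1 locus of its window in all 4 libraries lay 25477 bp beyond the gene, at the promoter of Tmem165, with 8.08 and 6.21 at 0 h and 9.34 and 7.70 at 6 h. Those ranges overlapped.

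Npas2, whose product can replace CLOCK, showed no GR locus and no H3K27ac at its own promoter. The nearest H3K27ac peak lay 88215 bp from its start site. Inside the gene were H3K27ac peaks of 209, 672 and 909 bp, the closest of them 137187 bp from the start. All 4 GR loci of its window were past the far end of the gene (chromosome 1, 39193702 to 39363240), around the ribosomal protein gene Rpl31 and Tbc1d8. The strongest, 39367609 to 39368534 at the Rpl31 promoter, had fold enrichments of 13.6 and 14.1 at 0 h and 15.5 and 9.86 at 6 h, with overlap between the times. The locus only at 6 h (39371087 to 39371661) was weak, at 7.70 and 7.41, lay outside H3K27ac and was 7847 bp from Npas2. When peaks were joined by their summits it was no longer a locus only at 6 h.

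Nr1d1, the gene of REV-ERB alpha, sits in a broadly acetylated stretch of chromosome 11 (98767932 to 98775377) beside the thyroid hormone receptor gene Thra. Its window held 17 H3K27ac peaks that covered 27536 bp, the most of the 10 genes, and one of them spanned 4032 bp over the start site. GR was called at the promoter (98775110 to 98775780) with 5.22 and 4.0 at 0 h and 3.95 in the first 6 h library. On average these were the lowest fold enrichments of the 50 loci. A locus inside the gene 976 bp from the start (98773757 to 98774401) had 8.92, 6.54 and 8.02, and one 7939 bp upstream (98783316 to 98783656) had 5.91, 6.75 and 7.55 in the same libraries. None of these 3 was called in the second 6 h library. The loci in all 4 libraries lay farther upstream, nearest to Msl1 (9.54, 10.6, 12.8 and 9.29) and Casc3 (13.8, 15.2, 12.2 and 7.91). At Casc3 both 0 h values were above both 6 h values.

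Nr1d2, the gene of REV-ERB beta, was one of the 2 members with a locus in all 4 libraries at a tabled promoter (2 of 9 members with an entry, background 21.2%). The locus spanned 1301 bp (chromosome 14, 18238038 to 18239338) in an H3K27ac peak of 1909 bp. It is the joined locus that overlapped the promoter. The peak of the second 6 h library (18238191 to 18239008) ended inside the gene, short of the tabled promoter. Fold enrichments were 10.7 and 11.1 at 0 h and 8.72 and 6.75 at 6 h, so both 0 h values were the higher. The summits lay inside the gene, 333 and 546 bp from the start at 0 h and 561 and 430 bp at 6 h. The other locus of the window, at the shared start region of Rpl15 and Nkiras1 31324 bp upstream, had 12.8 and 11.5 at 0 h and 16.8 and 9.26 at 6 h. The 250 bases upstream of both REV-ERB genes are printed from RefSeq (GRCm38.p6) because GR loci reached into them, with motif matches in capitals:
Nr1d1 (chr11:98775378-98775627, minus strand): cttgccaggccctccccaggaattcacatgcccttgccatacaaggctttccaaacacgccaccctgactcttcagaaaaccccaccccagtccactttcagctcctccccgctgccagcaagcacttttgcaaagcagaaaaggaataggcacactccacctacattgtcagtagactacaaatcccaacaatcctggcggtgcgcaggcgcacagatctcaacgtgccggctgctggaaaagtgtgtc
Nr1d2 (chr14:18239107-18239356, minus strand): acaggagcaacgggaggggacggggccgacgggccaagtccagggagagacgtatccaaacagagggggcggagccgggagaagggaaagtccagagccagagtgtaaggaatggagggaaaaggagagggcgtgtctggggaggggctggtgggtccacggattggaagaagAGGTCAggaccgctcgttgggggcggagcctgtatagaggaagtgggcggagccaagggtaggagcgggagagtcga
The Nr1d2 sequence has the letters AGGTCA, the core named above for REV-ERB and ROR, 77 bases before the start. The Nr1d1 sequence has none of the letters searched.

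Bhlhe40 and Bhlhe41 encode the paired repressors DEC1 and DEC2, and their GR maps differed. Bhlhe40 (chromosome 6, 108660629 to 108666925) was the nearest gene of all 5 loci in its window, and 4 of them lay within 1526 bp of it and in H3K27ac. The locus in all 4 libraries (108659305 to 108660528) ended 101 bp outside the gene and had 9.54 and 11.1 at 0 h and 12.1 and 7.93 at 6 h. The times overlapped there. Flanking it were a locus with 7.38, 7.10 and 5.98 in both 0 h libraries and the first 6 h library, and one with 5.58 and 4.83 in the first library of each time. The locus only at 6 h (108661387 to 108661762) was inside the gene and weak, at 5.89 and 5.44. It lay 328 bp from the next locus, and joining peaks across 500 bp absorbed it. A promoter sequence for Bhlhe40 was not used here.

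Bhlhe41 (chromosome 6, 145858243 to 145865420) had 2 loci, each in 1 library. The first 0 h library called 145855707 to 145855906 with 5.51, and the second called 145866356 to 145866716, 936 bp upstream of the start, with 5.92. No 6 h library had a peak within 50 kb, although the window held 9 H3K27ac peaks. Its promoter overlapped only the edge of one of these, which was 1118 bp wide and lay 230 bp upstream of the start. It is shown as the only promoter with the clock's own E-box, 153 bases before the start, and no GR peak:
Bhlhe41 (chr6:145865421-145865670, minus strand): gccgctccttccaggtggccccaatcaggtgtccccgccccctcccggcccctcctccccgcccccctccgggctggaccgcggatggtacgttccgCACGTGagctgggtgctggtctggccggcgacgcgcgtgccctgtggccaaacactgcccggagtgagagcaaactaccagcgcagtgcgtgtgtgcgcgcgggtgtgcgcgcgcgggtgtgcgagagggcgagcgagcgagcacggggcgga

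Dbp, a direct target of CLOCK and BMAL1 and the best known of the PAR bZIP genes, carried 3 GR loci on a gene of 5104 bp (chromosome 7, 45705100 to 45710203). At the promoter (45704673 to 45705142) the fold enrichments were 7.77 and 8.95 at 0 h and 6.81 in the first 6 h library. That locus also overlapped the neighbour Car11. Its summits lay 262, 311 and 370 bp upstream of the Dbp start in the same order, so only the edges of the peaks reached the tabled promoter. Inside the gene the fold enrichments were 6.39, 8.15 and 7.13 (45706735 to 45707227) and 7.91, 8.20 and 6.95 (45707444 to 45707931). The second 6 h library called none of these loci. An H3K27ac peak of 3908 bp covered the start and both of the inner loci, and 1.78% of the H3K27ac peaks were as wide.

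The strongest locus of all 10 windows lay in the window of Dbp at the promoters of Sphk2 and Rpl18 (45717514 to 45718599), 7311 bp beyond Dbp. Sphk2 encodes sphingosine kinase and Rpl18 a ribosomal protein. Its fold enrichments were 29.7 and 30.7 at 0 h and 24.2 and 14.5 at 6 h, and by p-value it ranked 4, 4, 22 and 92 within the 4 lists. Both 0 h values were the higher. The strongest locus only at 6 h was also here, 24662 bp upstream of Dbp inside the neighbour Sec1 (45679874 to 45680438), with 18.0 and 17.7. It ranked 874 and 463 in the 6 h lists and lay outside H3K27ac.

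Tef had the most loci, 12, and 0.119% of protein-coding genes had at least as many in their windows. Only 2 had Tef as the nearest gene, one at each of its start sites (chromosome 15, gene span 81802673 to 81826863). At the first start (81802467 to 81802868) peaks were called in the first library of each time, with 8.46 and 7.63. At the second (81810298 to 81811734) the largest values in the joined locus were 9.16 and 7.74 at 0 h and 6.06 in the first 6 h library. The first library of each time called separate peaks there. In the first 6 h library the peak of 6.06 (81810600 to 81811060) ended before this promoter. Its peak over the start itself (81811155 to 81811659) had 3.75. That locus measured 1437 bp and lay in H3K27ac of 2704 bp. Each promoter holds a CACGTG, and the second also an AGAACA. They are shown because both carry GR peaks and E-boxes:
Tef first start (chr15:81802423-81802672, plus strand): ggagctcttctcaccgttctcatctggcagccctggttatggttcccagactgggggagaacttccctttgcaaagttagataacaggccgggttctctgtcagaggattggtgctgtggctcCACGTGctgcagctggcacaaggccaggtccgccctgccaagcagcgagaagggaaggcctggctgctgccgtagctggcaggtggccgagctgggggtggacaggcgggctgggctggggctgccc
Tef second start (chr15:81811164-81811413, plus strand): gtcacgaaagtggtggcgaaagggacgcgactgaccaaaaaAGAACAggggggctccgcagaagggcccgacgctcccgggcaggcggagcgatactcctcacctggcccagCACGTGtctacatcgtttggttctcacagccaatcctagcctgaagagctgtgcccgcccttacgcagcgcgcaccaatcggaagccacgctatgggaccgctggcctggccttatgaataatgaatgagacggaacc
The E-boxes begin 127 and 138 bases before the start, and AGAACA begins 209 bases before the second start.

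The remaining 10 loci of the Tef window were nearest to other genes, Zc3h7b and Tob2 among them. Tob2, an antiproliferative gene, had loci in all 4 libraries with 11.4, 12.2, 12.3 and 7.91 (81857835 to 81858981, its promoter) and with 8.72, 10.7, 10.6 and 5.77 (81859526 to 81860251). In both, the times overlapped. Of the 3 loci only at 6 h, the strongest was at the other end of Tob2 (81848253 to 81848628), with 12.7 and 14.7, outside H3K27ac. Another (81859022 to 81859403), with 6.21 and 5.27, lay 41 bp from the first Tob2 locus, so that joining across 500 bp absorbed it. The third was inside Zc3h7b (81774548 to 81775101), in H3K27ac, with 8.40 and 7.03. By numbers of GR peaks per library and of H3K27ac peaks (4 and 1 values, log2 of the number + 1), the windows most like that of Tef, among genes whose windows do not overlap it, were those of Rtbdn (distance 0.13), Mast1 (0.16) and Armh1 (0.25).

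Hlf, the last of the PAR bZIP genes, was nearly bare. Its window (gene span chromosome 11, 90336535 to 90390917) held 0 H3K27ac peaks, and the nearest was 86657 bp from the gene. The only GR peak, 90369642 to 90369841 inside the gene, came from the first 0 h library with 5.87. By p-value it stood 93.3% of the way down that list. Of the 3 PAR bZIP genes, then, Dbp and Tef had promoters that H3K27ac and GR peaks overlapped at 0 h, and Hlf did not.

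Nfil3, the repressor that shares the D-box with those activators, had the most GR loci for which the member itself was nearest, 7 of 8. The locus in all 4 libraries (chromosome 13, 52981195 to 52982228) lay 156 bp upstream of the start. Fold enrichments were 10.8 and 10.4 at 0 h and 15.0 and 11.6 at 6 h, so both 6 h values were the higher. The highest summit in each library lay 299 and 324 bp upstream at 0 h and 336 and 297 bp at 6 h. Both loci only at 6 h lay outside H3K27ac. One was inside the gene (52976675 to 52977252), 3787 bp downstream of the start, with 9.53 and 8.56. The other was 4463 bp upstream of it (52985502 to 52986125), with 11.5 and 10.7.

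The first 6 h library alone called 4 more peaks between 28 and 7276 bp downstream of the Nfil3 start, with 7.95, 6.61, 7.12 and 6.97. The second 6 h library called none of them. The gene span of 15670 bp therefore held 1 locus in each 0 h library, 6 in the first 6 h library and 2 in the second. The promoter, which the GR locus of all 4 libraries entered, is printed with its one match, AGGTCA read on the other strand, which begins 12 bases before the start:
Nfil3 (chr13:52981040-52981289, minus strand): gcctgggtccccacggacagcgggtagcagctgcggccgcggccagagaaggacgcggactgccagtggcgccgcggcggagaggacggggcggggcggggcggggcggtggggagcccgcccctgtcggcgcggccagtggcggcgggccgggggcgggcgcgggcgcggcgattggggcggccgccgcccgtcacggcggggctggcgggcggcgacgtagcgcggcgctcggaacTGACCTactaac

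Across the promoters, GR of any library overlapped the tabled 300 bases (250 before and 50 after a start) of 6 of the 9 members with an entry, against 40.3% of genes with one. They were Clock, Nr1d1, Nr1d2, Dbp, Tef and Nfil3. At Nr1d2, Dbp and Nfil3 every summit lay outside the tabled bases, which only the edges of peaks reached. H3K27ac overlapped 7 of the 9, the same 6 and Bhlhe41, against 45.8%. The exceptions to both were Npas2 and Hlf. At Bhlhe41 and Nfil3 only the edges of H3K27ac peaks reached the tabled bases, with the nearest peak 230 and 41 bp from the start. Both strands of the 250 upstream bases of the 12 tabled promoters were searched for 5 motifs, and shares are of all 21263 tabled promoters. CACGTG was in 3 (6.63% of all), at Bhlhe41 and Tef, and AGGTCA in 3 (12.8%), at Clock, Nr1d2 and Nfil3. AGAACA, which is also a part of the full GR palindrome (AGAACA and its reverse complement, 3 bases apart), was in 1 (13.7%), at Tef. The D-box TTATGTAA (0.795%) and the full GR palindrome (2 promoters of all) were in none. The Clock match lay 119 bases before the third of its starts, where no GR locus reached. A match is a description of the letters and not a binding site, and GR peaks away from promoters were not searched.

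GR peaks in the windows lay in H3K27ac of 0 h in 96.8% and 100% of cases at 0 h and in 77.8% and 70.8% at 6 h. The times did not overlap. The difference of means was −24.1 percentage points (98.4 ± 2.28 against 74.3 ± 4.91, SD, n = 2 each, exact permutation test, two-sided, p = 0.333, the smallest that 2 against 2 libraries allow). Over all peaks of the same libraries the shares were 94.6%, 94.6%, 77.9% and 70.7% in the same order, a difference of −20.3 points. All 12 loci in all 4 libraries and 3 of the 8 loci only at 6 h overlapped H3K27ac, against 98.4% and 39.3% of such loci genome-wide. The 5 outside it were those in Sec1, at Rpl31 and Tbc1d8, at Tob2 and the pair at Nfil3. Conversely, 30 of the 64 H3K27ac peaks in the windows held a GR locus (46.9%, against 36.1% of all H3K27ac peaks). H3K27ac of the 6 h group was not analysed here.

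**Figure D3:**
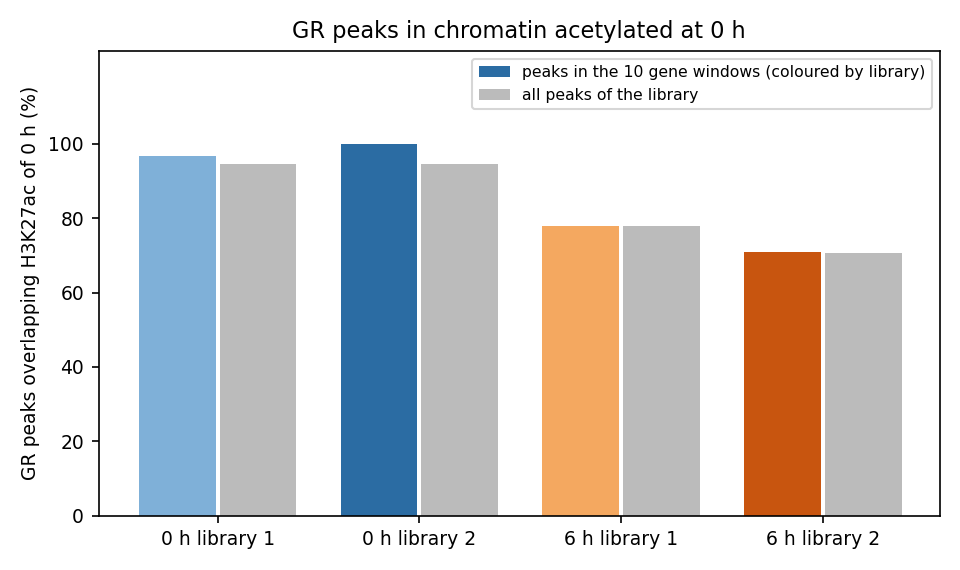
Share of GR peaks overlapping an H3K27ac peak of 0 h (y axis, percent) in each library (x axis), for the 10 gene windows (coloured bars) and for all peaks (grey bars). Both 6 h libraries are lower than both 0 h libraries in the windows (77.8% and 70.8% against 96.8% and 100%), as they are genome-wide.

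Among the 12 loci in all 4 libraries, fold enrichment was higher in both 0 h libraries at 3 (Nr1d2, Casc3 and the strong Sphk2 locus, background 20.8% of the 5012 shared loci) and higher in both 6 h libraries at 1 (Nfil3, background 9.16%). At the other 8 the times overlapped. Dividing each library's values by its median over shared loci gave 4 and 3. Without the first 6 h library, 10 of the 12 were higher at 0 h and 1 at 6 h. Without the second, 8 of 22 loci were higher at 0 h and 10 at 6 h, and without the first 0 h library the numbers were 4 and 2 of 12. Each list was scaled on its own, so these values describe the peaks and cannot show whether binding changed.

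**Figure D4:**
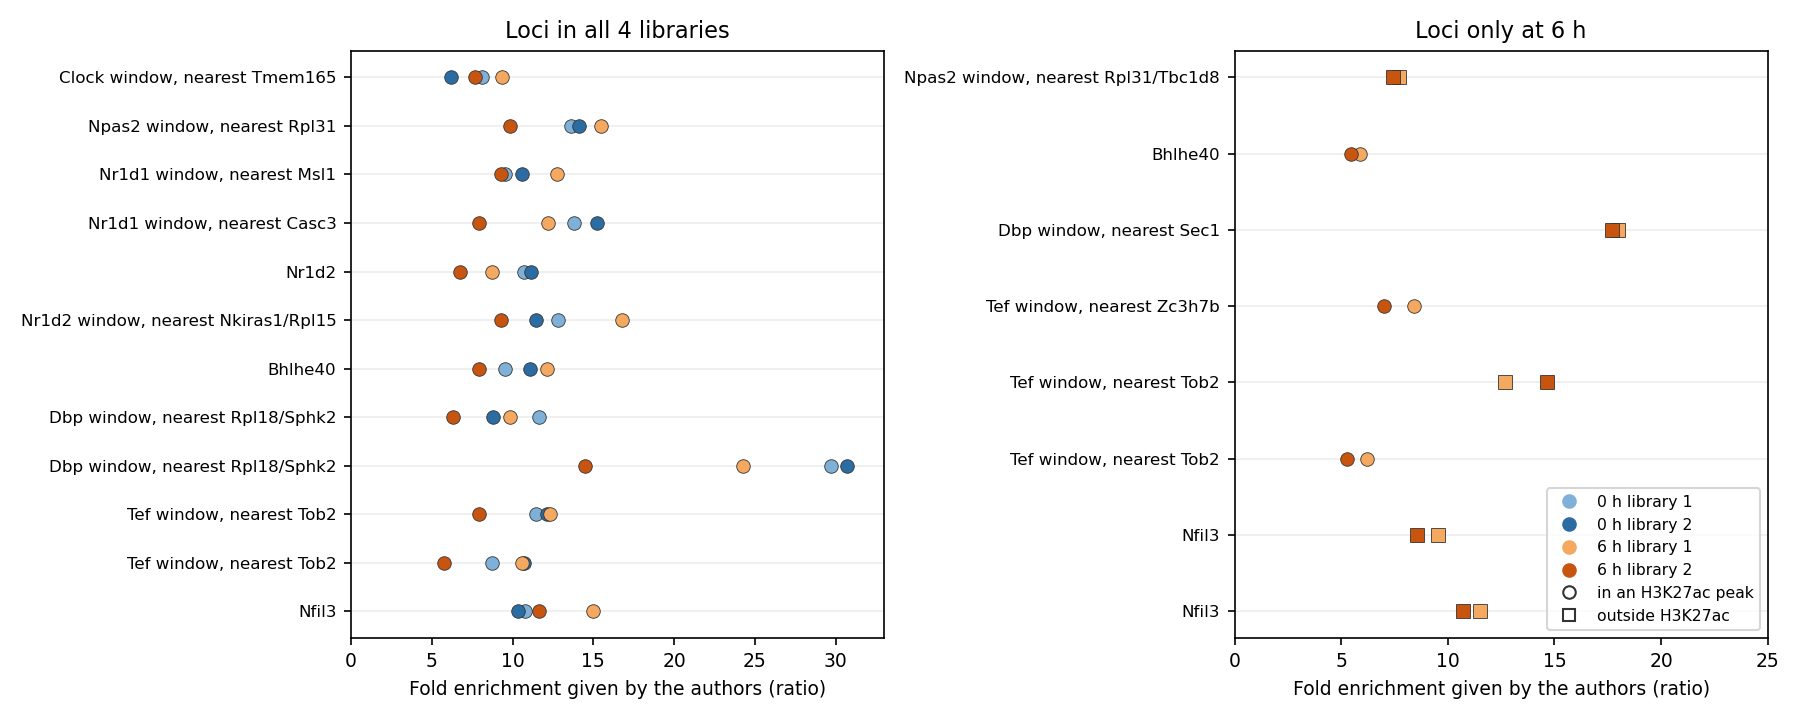
Fold enrichment given by the authors (x axis, ratio) at each locus called in all 4 libraries (left) and only at 6 h (right), with 1 point per library, circles inside and squares outside H3K27ac, and rows named by the gene window and the nearest gene. The Sphk2 locus reaches 30.7, the Sec1 locus 18.0, and at Nr1d2 both 0 h points lie above both 6 h points.

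For comparison, 16 other clock genes, listed for their known place in the clock, were counted in the same way. Of these, 15 had a GR locus, 12 had one in all 4 libraries, 4 had one only at 6 h and 2 had one only at 0 h. Over all protein-coding genes the shares were 68.8%, 45.5%, 16.5% and 6.78% in the same order, and no test was run. Loci only at 6 h included those at the repressor gene Cry2 (1) and at Rora (2), which encodes a ROR receptor. Those only at 0 h were at the repressor gene Per1 (2) and at Timeless (1). Arntl, the gene of BMAL1, had 2 loci and none of these classes, as had Arntl2 with 1 and Csnk1e with 2, and Rorb had none at all. H3K27ac lay within 1 kb of a gene end in 12 of the 16, against 7 of the 10 genes above and 47.9% of all genes. The median number of loci per window was 4 in these genes and 4.5 in the 10, against 2 over all genes.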

How the data were processed

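Peak lists of 5 of the 9 samples were used; the other 4 (pooled inputs and the GR libraries labelled PRWT and PRKO) were not used. Reads were aligned with Bowtie2 2.4.5 to mm10 and peaks called with MACS2, per the submitters' processing notes, with 1 list per library. A peak of the deposited GR lists comes with a summit, a fold enrichment (a ratio over the caller's background), −log10 of its p-value and of its q-value, and a score, the whole-number part of 10 times the former. These scales are separate for each list. The deposited H3K27ac list gives positions only. The weakest GR peaks had −log10 p-values of 9.00 to 9.10. Neither the caller's version nor its control is given in the sources used here.

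Peaks outside chromosomes 1 to 19, X and Y were dropped. The rest were merged and assigned to gene spans with 50 kb to each side (Python 3.11.15, numpy 2.4.6). Gene spans and promoters came from RefSeq tables of GRCm38.p6. Merging and classing were tested on simulated peaks. Exact two-sided permutation tests compared numbers and shares between libraries. All 10 members are named, each with its strongest locus, its locus nearest to a gene end and its loci of 1 time only; other clock genes are named where they have a locus of 1 time only, except some that are not reported here, and Arntl, Arntl2, Csnk1e and Rorb were named after their values were seen. The members and lists were chosen with earlier results of these data known. Alternatives were windows of 10 and 100 kb, the stronger 50% of each list, the 9726 strongest peaks of each list, joining across 500 bp or by summits, scaled fold enrichments, other limits for gene ends, pairing, each library left out and, added after seeing the data, nearest-gene assignment.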

Additional observations from a re-analysis of the deposited data

How the results depend on the processing

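With 1 library per time left out in turn, the difference in peaks per library ranged from −4.5 to 16.5 and its share in H3K27ac from −27.6 to −20.6 percentage points. The ranges were 12 to 22 for loci in all libraries left, 0 to 10 (at 0 to 5 genes) for loci only at 0 h, 8 to 16 for loci only at 6 h, 4 to 10 for shared loci higher at 0 h and 1 to 10 for those higher at 6 h. The difference in peaks was −2 with the 9726 strongest peaks of each list and 0 with nearest-gene assignment. With windows of 10 kb, 6 loci at 5 genes were in all 4 libraries and 4 at 3 genes only at 6 h. With windows of 100 kb, 1 locus at 1 gene was only at 0 h, and 2 shared loci were higher at 6 h. The stronger 50% of each list gave 5 loci at 3 genes only at 6 h and 2 at 1 gene only at 0 h, and the same number of strongest peaks gave 5 at 3 and 2 at 2. With nearest-gene assignment, 3 loci at 3 genes were in all 4 libraries, 3 at 2 genes only at 6 h, and 1 shared locus was higher at 0 h. Scaled fold enrichments put 3 shared loci higher at 6 h. With an H3K27ac peak on the gene end itself the count was 3 genes in place of 7. A left-out library, a shorter list or another window length changes by construction which loci can be counted, and the cause of the other shifts was not tested. The lower H3K27ac share at 6 h had the same sign under all alternatives run for it. Pairing libraries by replicate number, as a replicate block, kept the differences at 6 peaks (exact permutation p = 1) and −24.1 points (p = 0.5, the smallest that 2 pairs allow). The labels do not say that the numbers mark shared mice. Depth is unknown, so no absence of a peak is an absence of GR.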
